A study of Homo sapiens with 6 samples.

Results

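The genes of the human mitochondrial genome were examined in RNA sequencing of PC-3 cells, an established prostate cancer line derived from a bone metastasis. Every gene that the count tables place on the chromosome named MT was taken, which gave 37 of 64253 genes: 13 mRNAs, 2 rRNAs and 22 tRNAs. The study compared shCdGAP cells, infected with lentiviruses for a short hairpin RNA against CdGAP (gene symbol ARHGAP31, a GTPase-activating protein for Rac1 and Cdc42), with shCon cells that carry a control hairpin, and sequenced 3 samples of each. Both groups share the PC-3 background, and whether the luciferase-expressing derivative was used for sequencing is not given in the sources used here. shCdGAP PC-3 cells were selected with puromycin and grown from single cells, so that group can stand for 1 clone; neither the clone sequenced nor a matching step for the shCon cells is named. The labels number the samples of each group 1 to 3 without saying what a number stands for.

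Human mitochondrial DNA is a small circle that is read from both strands into long transcripts by the polymerase POLRMT with the packaging and initiation factor TFAM. These precursors are cut, mostly at the tRNAs that punctuate them, into rRNAs, tRNAs and mRNAs, and the LRPPRC-SLIRP complex stabilizes most of the mRNAs. The mRNAs encode subunits of the respiratory complexes I, III, IV and V, which are completed by subunits from nuclear genes. RNA level per gene is therefore set by both joint transcription and separate decay. In bulk RNA, more mitochondrial RNA per cell and more cells that are rich in it cannot be told apart.

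Counted reads per library, all genes together, ran from 33182796 to 43154039. ARHGAP31 was at 26.8 ± 0.351 CPM (reads of a gene scaled to library size; SD, n = 3) in shCdGAP and 59.2 ± 1.22 in shCon, a log2 fold change of -1.14. Among the epithelial markers, KRT8 ran from 184 to 203 CPM and KRT18 from 250.0 to 298 CPM over the 6 libraries. Of 5 blood markers none was tested and PTPRC was at or near 0, as were the endothelial marker VWF and the fibroblast marker DCN. PECAM1, another endothelial marker, was detected at 2.37 to 5.99 CPM (93 to 261 reads), with a log2 fold change of -0.57 that was not called (edgeR adjusted p = 0.181). The other 3 fibroblast markers, LUM, COL1A1 and PDGFRB, were called higher in shCdGAP, with COL1A1 at 57.1 against 18.0 CPM, as were the epithelial markers KRT19 and EPCAM, while CDH1 was at -0.72 and not called (edgeR adjusted p = 0.0636); the part of these differences in the results was not tested. shCdGAP replicate 2 stood apart in markers, with KRT19 at 451 CPM beside 297 and 294, so results below are also given without it where that changed them.

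A pair of the mitochondrial mRNAs carry more than 1 reading frame, and these stretches are shown because the levels of their genes are compared below. The sequences are GRCh38, plus strand, and the capitals mark bases that belong to both genes. MT-ND4L (chrM:10470-10766) and MT-ND4 (chrM:10760-12137), subunits of the membrane arm of complex I, share 7 bases, which hold the start codon of MT-ND4 and the stop codon of MT-ND4L. MT-ATP8 (chrM:8366-8572) and MT-ATP6 (chrM:8527-9207), subunits of the ATP synthase, share 46 bases.
MT-ND4L/MT-ND4, chrM:10733-10793: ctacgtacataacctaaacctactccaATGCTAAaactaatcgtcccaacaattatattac
MT-ATP8/MT-ATP6, chrM:8500-8599: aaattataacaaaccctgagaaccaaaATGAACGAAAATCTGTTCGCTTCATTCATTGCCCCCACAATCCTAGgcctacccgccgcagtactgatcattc

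Parts of the mitochondrial genome also have old copies in nuclear chromosomes, and a read that fits both places equally well is left out under the counting settings in the file headers. MT-ATP6 and MT-ND4 are shown beside the nuclear copies MTATP6P1 (chromosome 1) and MTND4P12 (chromosome 5, minus strand) to show how little can separate them; capitals mark the 2 positions of each window that differ. Without gaps, MTATP6P1 was identical to its mitochondrial counterpart at 98.5% of 681 positions, and MTND4P12 at 95.7% of 1377.
MT-ATP6, chrM:8623-8682: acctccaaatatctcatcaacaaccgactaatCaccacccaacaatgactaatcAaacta
MTATP6P1, chr1:633792-633851: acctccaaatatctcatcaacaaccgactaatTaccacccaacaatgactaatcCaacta
MT-ND4, chrM:10760-10819: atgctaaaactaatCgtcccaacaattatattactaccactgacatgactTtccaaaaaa
MTND4P12, chr5:134927977-134928036: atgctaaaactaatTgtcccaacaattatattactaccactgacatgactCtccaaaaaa

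Of all windows of 50 bases, the share with an identical nuclear copy was 50.6% in MT-CO1, 46.7% in MT-ATP6 and 43.6% in MT-ND2. It was 43.65% in MT-RNR1, 15.7% in MT-RNR2, 3.54% in MT-ND4 and 0 of 248 windows in MT-ND4L. Levels per length below can therefore be understated to different degrees. Windows were compared singly, while read pairs were counted, so how much each gene lost was not tested.

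Mitochondrial genes took about 1 read in 100 in these cells, and the share varied more within each group than between them. In shCdGAP libraries 1, 2 and 3, the mitochondrial share was 1.12%, 0.616% and 1.46% of counted reads. In shCon libraries 1, 2 and 3, it was 0.920%, 0.594% and 1.14%. The groups overlapped, and in both of them replicate 3 was highest and replicate 2 lowest. The means were 1.06% ± 0.422 and 0.885% ± 0.276 (SD, n = 3 each), a ratio of 1.20, and the exact two-sided permutation test gave p = 0.6, where 3 against 3 cannot go below 0.1. Counting error was small beside this spread: the widest 95% Wilson interval of a library's share was 0.00805 percentage points, covering counting error only. Without shCdGAP replicate 3 the ratio fell to 0.979, and it was highest, at 1.45, without shCdGAP replicate 2.

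Summed over genes, the mRNAs took a larger share of all reads in shCdGAP at each number and the rRNAs, most of whose reads are MT-RNR2, a smaller one. The 13 mRNAs took 0.95% ± 0.385 of counted reads in shCdGAP and 0.763% ± 0.246 in shCon, a ratio of 1.25. The rRNAs took 0.113% ± 0.0374 and 0.122% ± 0.0305, a ratio of 0.922. The groups overlapped for the mRNAs and for the rRNAs (exact permutation p = 0.4 and 0.7). The numbers were not taken to pair samples. The 22 tRNA genes, which span 59 to 75 bases, had 143 to 278 reads together in each library.

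**Figure D1:**
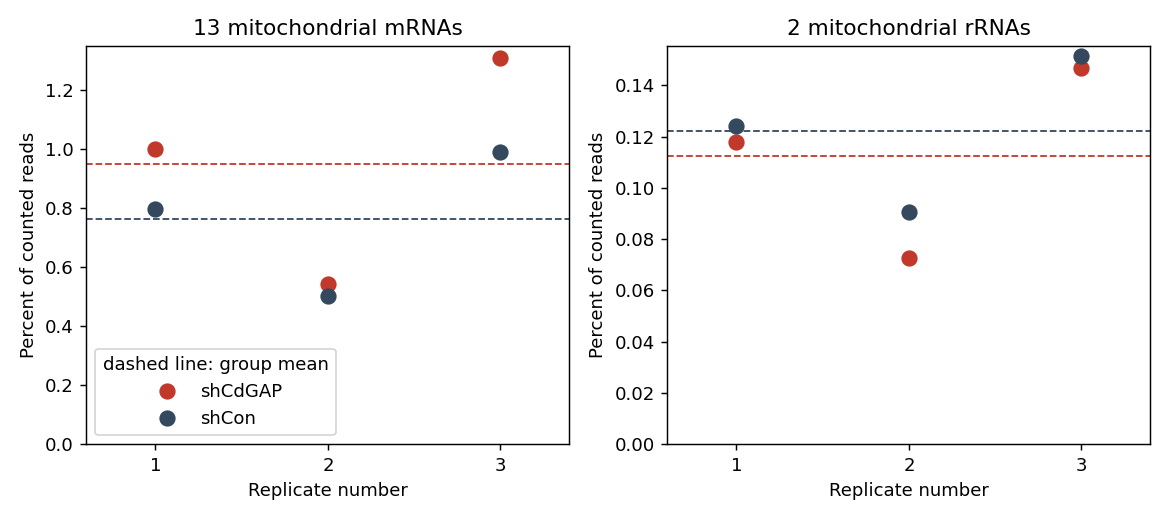
Percent of all counted reads on the 13 mitochondrial mRNAs (left) and the 2 mitochondrial rRNAs (right), by replicate number on the x axis, with 1 point per library and a dashed line at each group mean. Replicate 3 is highest and replicate 2 lowest in both groups and both panels; for the mRNAs, shCdGAP lies above shCon at each number, and for the rRNAs it lies below.

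Gene by gene and relative to all reads, no mitochondrial gene was called between shCdGAP and shCon. edgeR's quasi-likelihood test was fitted to all 16439 genes that passed the expression filter, with Benjamini-Hochberg adjustment over all of them and calls at an adjusted p under 0.01. Of the 37 mitochondrial genes, 20 passed the filter, and 0 were called in either direction, where 46.2% of all tested genes were called, 24.1% higher and 22.0% lower; with an absolute log2 fold change above 1 in addition, 12.8% of all tested genes and 0 mitochondrial genes were called. Adjusted p-values ran from 0.209 to 0.839, the count at an unadjusted p under 0.05 was 0, and DESeq2 also called 0. This result depended on how the replicate number was treated: with the number as a block, which the labels do not define, MT-ND4 (edgeR adjusted p = 5.13e-05), MT-ND4L (0.000135), MT-RNR1 (0.000786) and MT-CO1 (0.00705) were called higher, beside 23.2% of all tested genes called higher in that fit. All 20 genes had overlapping groups in CPM, against 67.1% of tested genes whose groups did not overlap. The other 17 genes, all tRNAs, had 0 to 6 reads per library, and MT-TK and MT-TR had no read in any.

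All 13 mRNAs had fitted log2 fold changes above 0, between 0.16 for MT-ND2 and 0.51 for MT-ND4, but they come from shared precursors and are not separate evidence. Setting libraries of the same number side by side, 5 of the 13 mRNAs were higher in shCdGAP at all 3 numbers, beside 38.7% of all tested genes. MT-CO1, a catalytic subunit of complex IV and the mRNA with most reads, was at 2490, 1449 and 3253 CPM in shCdGAP libraries 1 to 3. In shCon libraries 1 to 3 it was at 2082, 1362 and 2634 CPM. The replicate 2 libraries were low in both groups, and the log2 fold change was 0.24 (SE 0.390, edgeR adjusted p = 0.626).

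MT-ND4 had the largest fitted difference of the mRNAs. Its CPM were 1814, 1041 and 2381 in shCdGAP and 1272, 780 and 1622 in shCon, so that each shCdGAP library was above the shCon library of the same number while the groups overlapped (log2 fold change 0.51, SE 0.413, edgeR adjusted p = 0.341). MT-ND4L was close to it, at 237, 137 and 318 CPM against 174, 106 and 215 (0.49, SE 0.410, edgeR adjusted p = 0.361). MT-RNR2, the rRNA of the large mitochondrial ribosomal subunit, was at 1052, 629 and 1308 CPM in shCdGAP and 1157, 840.0 and 1411 in shCon (-0.19, SE 0.337, edgeR adjusted p = 0.661). MT-RNR2 was thus lower in shCdGAP at each number, opposite to MT-ND4, and without shCdGAP replicate 2 its value was 0.05.

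MT-ND6, the complex I subunit encoded on the other strand from the remaining mRNAs, was the lowest mRNA. Its values were 18.5, 13.1 and 22.5 CPM in shCdGAP and 14.9, 13.3 and 15.7 CPM in shCon, with a log2 fold change of 0.29 (SE 0.186, edgeR adjusted p = 0.212). It varied less between libraries than the others. It was the only mitochondrial gene to pass the threshold without shCdGAP replicate 2 (0.47, edgeR adjusted p = 0.000338).

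The remaining mRNAs followed MT-CO1, with the lowest value of each group in replicate 2 and overlapping groups. The complex I subunits MT-ND1, MT-ND2, MT-ND3 and MT-ND5 had log2 fold changes of 0.24, 0.16, 0.19 and 0.19. MT-CO2 and MT-CO3, of complex IV, were at 0.29 and 0.20, and MT-CYB, of complex III, was at 0.31. MT-ATP6 ran from 281 to 770 CPM in shCdGAP and from 285 to 586 CPM in shCon, and MT-ATP8 from 102 to 278 and from 102 to 202. MT-RNR1 was at 122, 92.1 and 146 CPM in shCdGAP and 98.1, 78.0 and 109 CPM in shCon (log2 fold change 0.33, SE 0.203, edgeR adjusted p = 0.209), higher in shCdGAP at each number, unlike MT-RNR2.

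Only 5 tRNA genes passed the filter, and all had low counts. MT-TL1, for a leucine tRNA, was the highest of them at 3.35, 1.81 and 4.39 CPM in shCdGAP and 3.62, 2.15 and 4.42 CPM in shCon (-0.10, SE 0.366, edgeR adjusted p = 0.839). MT-TT was at 0.48 to 1.37 CPM over all 6 libraries, and MT-TQ, MT-TE and MT-TP were below 1 CPM in every library. Their fitted log2 fold changes lay between -0.20 and 0.21.

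The composition of the mitochondrial reads was far steadier than their total. Dividing each gene's reads by all mitochondrial reads of its library removes the total, and the mRNAs then took 89.4%, 88.1% and 89.9% in shCdGAP and 86.4%, 84.7% and 86.7% in shCon. The groups did not overlap, with means of 89.1% ± 0.891 and 85.9% ± 1.10. The rRNAs took the rest almost entirely, at 10.8% ± 0.891 against 14.0% ± 1.09, and the tRNAs took 0.0527% against 0.0682%. The exact permutation p was 0.1 for each, the least that 3 against 3 allows. It was 0.28 after Benjamini-Hochberg adjustment over the 28 quantities compared in this way (shares, ratios and read totals).

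This difference lay mainly in MT-ND4, MT-ND4L and MT-RNR2. MT-ND4 took 16.3%, 17.1% and 16.5% of the mitochondrial reads in shCdGAP and 13.7%, 13% and 14.1% in shCon, so all shCdGAP libraries lay above all shCon libraries. MT-ND4L took 2.13%, 2.24% and 2.21% against 1.87%, 1.77% and 1.87%. MT-RNR2 took 9.46%, 10.3% and 9.08% against 12.4%, 14.0% and 12.3%, with all shCdGAP libraries below. MT-ND5, another complex I subunit, also did not overlap, by a small margin: 7.34%, 7.08% and 7.29% against 7.59%, 7.53% and 7.47%. Together 4 of the 15 mRNAs and rRNAs had groups that did not overlap, fewer than the 67.1% of tested genes whose CPM did not overlap.

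**Figure D2:**
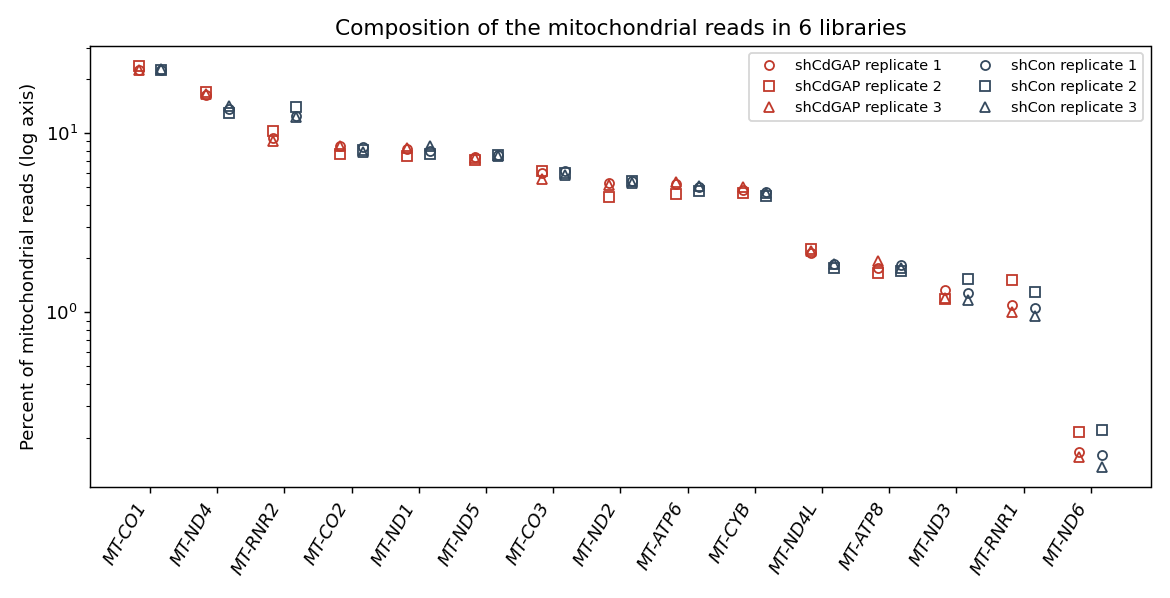
Percent of each library's mitochondrial reads on each mRNA and rRNA (log axis), with 1 marker per library, shape for the replicate number and color for the group. The shCdGAP markers of MT-ND4 (16.3% to 17.1%) and MT-ND4L lie above those of shCon, and those of MT-RNR2 (9.08% to 10.3%) below, while most other genes overlap and MT-RNR1 and MT-ND6 are highest in replicate 2 of both groups.

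To test the composition across all genes, the fit was repeated on the whole table with mitochondrial rows scaled by the mitochondrial reads of each library; this fit was added after the data had been seen. It called 3 of the 20 tested mitochondrial genes, 2 higher and 1 lower, beside 46.3% of all tested genes (24.2% higher and 22.1% lower). MT-ND4 was higher in shCdGAP by a log2 fold change of 0.29 (SE 0.0412, edgeR adjusted p = 0.000295) and MT-ND4L by 0.26 (SE 0.0381, edgeR adjusted p = 0.00039). MT-RNR2 was lower, at -0.42 (SE 0.0623, edgeR adjusted p = 0.000396). The SE of MT-ND4 relative to all reads had been 0.413. The tRNA MT-TL1, whose gene lies directly after MT-RNR2, was at -0.33 (SE 0.107, edgeR adjusted p = 0.0259), short of the threshold. All other mRNAs lay between -0.11 for MT-ND2 and 0.06 for MT-CYB in this fit. The 3 calls and their directions held with every library left out in turn and when the scaling used only the mRNAs or their geometric mean. They also held when the scaling left out the reads of these 3 genes. That scaling could not test the calls, because the genes left out were picked from this same fit. These values are relative, so a rise of 1 gene's share and a fall of the rest cannot be told apart from the shares alone.

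**Figure D3:**
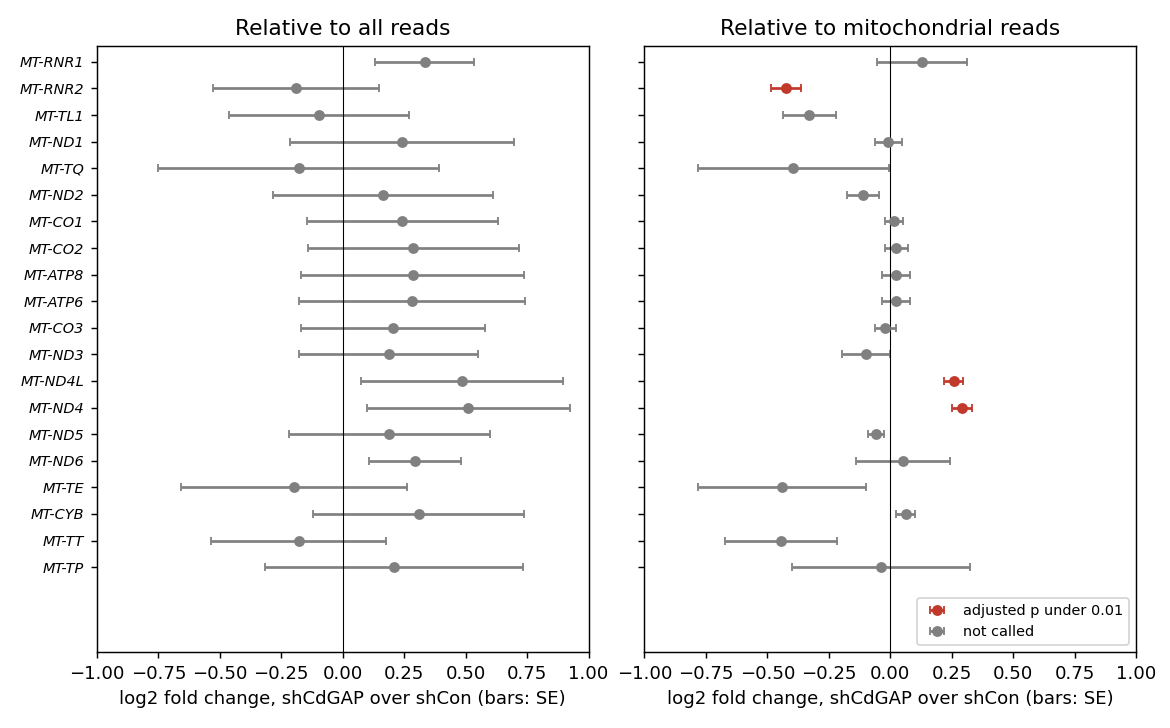
Log2 fold change of shCdGAP over shCon with its standard error for the 20 tested mitochondrial genes in genome order, relative to all reads (left) and relative to the mitochondrial reads (right), with calls at adjusted p under 0.01 in red. No gene is called on the left; on the right MT-ND4 (0.29), MT-ND4L (0.26) and MT-RNR2 (-0.42) are called with short error bars.

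Some ratios of reads between genes of the same library separated the groups too, without any scaling. These ratios use the same reads as the shares above and are not separate evidence. Per read of MT-CO1 there were 0.729, 0.719 and 0.732 reads of MT-ND4 in shCdGAP and 0.611, 0.573 and 0.616 in shCon, which did not overlap. Against MT-ND5, whose gene follows MT-ND4 after 3 tRNA genes, MT-ND4 stood at 2.30 ± 0.0965 and 1.81 ± 0.0857. Against MT-CYB, the complex III subunit, it stood at 3.45 ± 0.181 and 2.94 ± 0.0832. In each of these pairs the shCdGAP libraries were all higher. For each, the exact permutation p was 0.1, and 0.28 after Benjamini-Hochberg adjustment.

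The ratios between genes of 1 shared mRNA overlapped between the groups. MT-ND4 per MT-ND4L was 7.58 ± 0.0836 in shCdGAP and 7.41 ± 0.133 in shCon. MT-ATP8 per MT-ATP6 was 0.355 ± 0.0103 and 0.355 ± 0.00973. The rRNAs, which come from 1 precursor, had ratios that did not overlap: MT-RNR2 per MT-RNR1 was 8.61, 6.83 and 8.98 in shCdGAP and 11.8, 10.8 and 12.9 in shCon. MT-RNR1, the rRNA of the small subunit, took 1.21% ± 0.266 and 1.10% ± 0.177 of the mitochondrial reads with overlapping groups, and its composition fold change was 0.13 (SE 0.184, edgeR adjusted p = 0.582).

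Levels per length were taken as RPKM (reads per kilobase of gene, scaled to the same library sizes as CPM). MT-CO1 was the highest in all 6 libraries, from 883 to 2110. MT-CO2 followed at a mean of 1285 in shCdGAP and 1052 in shCon and MT-ND4 at 1267 and 889, with MT-CO2 above MT-ND4 in 5 of 6 libraries. MT-ATP8, MT-ND1, MT-CO3, MT-ATP6 and MT-RNR2 came next, and MT-CO3 exceeded MT-ATP6, and MT-ATP6 exceeded MT-RNR2, in only 4 and 3 of the 6 libraries, so that their order was not fixed. MT-ND4L was ninth, above MT-ND2 in all 6, and MT-CYB and MT-ND5 were close, after which MT-ND3 stood at 380 and 334. MT-RNR1 at 126 and 99.8 and MT-ND6 at 34.3 and 27.9 were the lowest, each below its neighbor in the order in all 6 libraries.

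Within each group, the mitochondrial share of replicate 2 differed from those of replicates 1 and 3 by more than same-numbered libraries of the groups differed. The ratio of shCdGAP to shCon was 1.21, 1.04 and 1.27 at numbers 1, 2 and 3. Replicates 3 and 2, compared next, were the highest and lowest in both groups. Replicate 3 had 2.36 times the mitochondrial share of replicate 2 in shCdGAP and 1.92 times in shCon, and replicate 1 had 1.81 and 1.55 times. The median mRNA was higher in replicate 3 than in replicate 2 by 1.28 on the log2 scale in shCdGAP and 0.95 in shCon, while the median over all tested genes was -0.00 and -0.01. For the rRNAs the medians were 0.86 and 0.62. Only 31 of 16419 tested nuclear genes were higher in replicate 3 than in replicate 2 by at least the smallest mRNA difference in both groups, 0.76 and 0.24, and 4 of these were nuclear copies of mitochondrial genes. The counted reads of the libraries ran the other way: replicate 3 was the shallowest and replicate 2 the deepest in both groups (34011175 and 43154039 in shCdGAP, 33182796 and 42786971 in shCon). The part of depth or of what the number stands for in this difference was not tested.

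Composition moved with the number as well. MT-RNR1 took 1.51% of the mitochondrial reads in shCdGAP replicate 2 beside 1.10% and 1.01%, and 1.30% in shCon replicate 2 beside 1.06% and 0.953%. MT-ND6 took 0.215% beside 0.166% and 0.156%, and 0.221% beside 0.161% and 0.137%. Both genes were thus relatively high where mitochondrial reads were few. MT-RNR2 was also highest in replicate 2 within each group, yet shCdGAP replicate 2, at 10.3%, stayed below every shCon library.

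**Figure D4:**
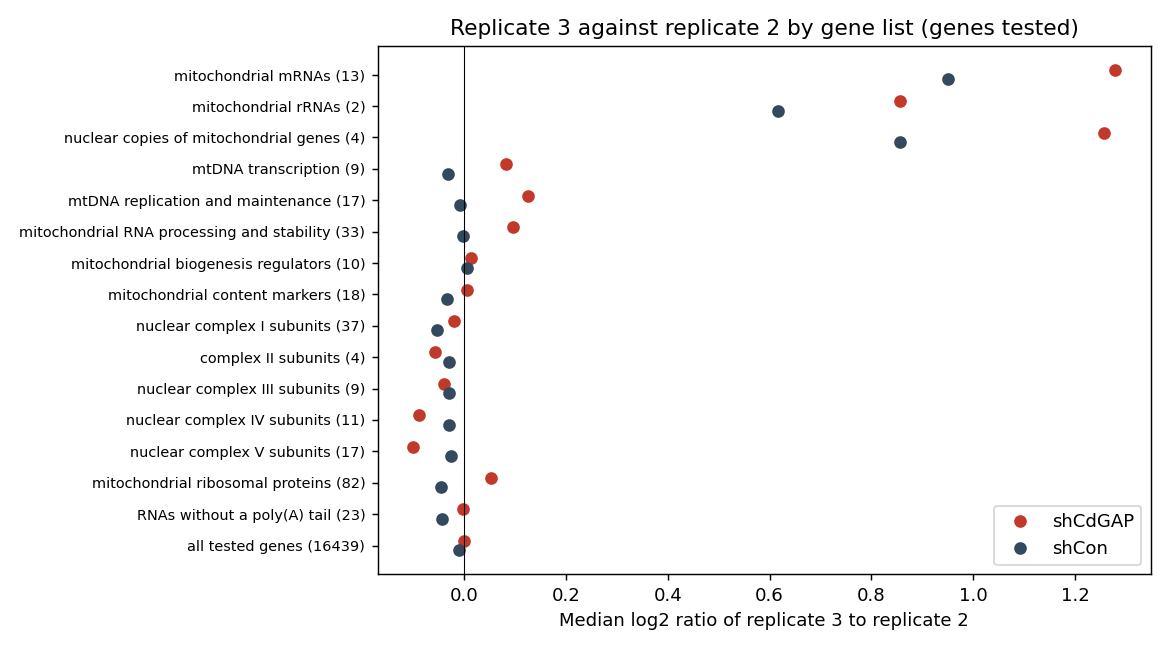
Median log2 ratio of replicate 3 to replicate 2 for each gene list, with 1 point per group and the number of tested genes in brackets. Mitochondrial mRNAs (1.28 and 0.95), rRNAs (0.86 and 0.62) and nuclear copies of mitochondrial genes (1.26 and 0.86) lie far to the right, while the other lists and all tested genes lie near 0.

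Reads on the nuclear copies varied with those of the mitochondrial genes. Of 390 such copies in the tables, 348 had no read and 4 had at least 10 reads in every library. MTATP6P1, shown above beside MT-ATP6, had 2087, 1197 and 2489 reads in shCdGAP and 1751, 1076 and 1851 in shCon. Per 100 reads of MT-ATP6 that was 9.37 ± 0.412 and 9.14 ± 0.365, near constant across libraries. MTND2P28 stood at 3.43 ± 0.0905 and 3.41 ± 0.264 per 100 reads of MT-ND2. MTCO1P12 stood at 0.212 and 0.228 per 100 of MT-CO1, and MTND4P12 at 0.374 and 0.403 per 100 of MT-ND4. None of the 4 was called, and counts on these copies cannot be told apart from misplaced mitochondrial reads.

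Nuclear genes that act in mitochondria were called more often lower than higher in shCdGAP. Over 11 lists with 246 tested genes, 26 were called higher and 98 lower, beside 24.1% and 22.0% of all tested genes. Leaving out 1 library at a time gave 66 to 129 lower, and the number higher was 40 without shCdGAP replicate 2, 16 without shCdGAP replicate 1, 15 without shCon replicate 1 and 14 without shCon replicate 3. None of these lists moved with the replicate number as the mitochondrial genes did, with medians between -0.10 and 0.13 for replicate 3 over replicate 2.

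Genes that transcribe and copy mitochondrial DNA went both ways. Of 9 transcription genes, 2 were called higher and 2 lower (44.4%), near the 46.2% of all tested genes called in either direction. The median log2 fold change was -0.09 beside 0.01 over all tested genes. TFAM was at 157, 142 and 155 CPM in shCdGAP and 211, 210 and 203 CPM in shCon, with no overlap (-0.46, SE 0.0445, edgeR adjusted p = 2.98e-05). POLRMT was at 83.1 ± 2.27 and 80.0 ± 0.744 CPM (0.05, edgeR adjusted p = 0.234). TFB1M, which methylates MT-RNR1, was lower at -0.33, and MTERF2 was higher at 0.30. Of 17 replication genes, 3 were called higher and 4 lower (41.2%), below the share of all tested genes. The mitochondrial helicase TWNK was at -0.39, the polymerase POLG at -0.20 and the nuclease EXOG at -0.68, while the thymidine kinase TK2 was at 0.89. With 1 library left out, the transcription genes gave 0 to 2 higher and 1 to 3 lower. The replication genes gave 2 to 5 lower, and 3 higher in every case but 1, with 8 higher without shCdGAP replicate 2.

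RNA processing and stability genes were mostly lower. Of 33, 3 were called higher and 17 lower (60.6%, beside 46.2% of all tested genes), with a median of -0.17. With 1 library left out, 1 to 5 were higher and 14 to 21 lower. SLIRP was lower at -0.24 (SE 0.0424, edgeR adjusted p = 0.00113), and its partner LRPPRC, at 370 ± 11.7 CPM against 399 ± 3.12, was at -0.11 and not called (edgeR adjusted p = 0.0242). TRUB2 and RPUSD3, pseudouridine synthases of mitochondrial RNA, were lower at -0.69 and -0.49, and FASTK, whose mitochondrial form is needed for MT-ND6 mRNA, was higher at 0.62. FASTK was at 99.7 ± 0.814 CPM in shCdGAP and 64.9 ± 2.26 in shCon.

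Biogenesis regulators held no call above shCon: 3 of 10 tested were lower, namely GABPA (-0.30), NRF1 (-0.22) and CREB1 (-0.17), all transcription factors. That was 30% of the list called, beside 46.2% of all tested genes. The number lower was 6 without shCdGAP replicate 2 and 1 without any 1 of the shCon libraries. PPARGC1A, the coactivator that drives mitochondrial biogenesis in other tissues, was barely detected at 0.181 and 0.210 CPM, and MYC was at 1826 ± 291 and 1925 ± 23.1 CPM (-0.08, edgeR adjusted p = 0.548). General content markers were 3 higher and 10 lower of 18 (72.2% called). Among those lower were the import pore TOMM40 (-0.49), the prohibitin PHB2 (-0.59) and the translation factor TUFM (-0.45). With 1 library left out, 1 to 3 were higher and 5 to 12 lower.

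The nuclear subunits of the respiratory complexes are given by complex. No test compared the complexes, and the counts moved with single libraries. The share called was 43.2% for complex I, 75% for complex II, 22.2% for complex III and 27.3% for complex IV. Over all tested genes it was 46.2%. For complex I, which holds MT-ND4 and MT-ND4L, 3 of 37 nuclear subunits were higher and 13 lower, with a median of -0.10; NDUFC1 was lowest, at 17.5 ± 1.51 against 35.6 ± 1.54 CPM (-1.02), and NDUFA8 and NDUFB11 were at -0.44 and -0.29. Complex II has no mitochondrial gene, and of its 4 subunits SDHB (0.23) and SDHC (0.34) were higher and SDHD (-0.14) lower. Complex III had 1 of 9 higher (UQCRH, 0.15) and 1 lower (UQCR10, -0.19). Complex IV had 2 of 11 higher (NDUFA4, 0.27, and COX6A1, 0.15) and 1 lower (COX4I1, -0.23). With 1 library left out, the number lower ran from 7 to 18 for complex I, 0 to 2 for complex II, 0 to 5 for complex III and 0 to 4 for complex IV, each highest without shCdGAP replicate 2. The number higher ran from 1 to 3 for complex I, 0 to 2 for complex III and 1 to 3 for complex IV, and stayed at 2 for complex II.

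Complex V, the ATP synthase, had 11 of 17 nuclear subunits lower (64.7%, beside 22.0% of all tested genes) and 0 higher, and the median was -0.21. With 1 library left out, 8 to 16 were lower and 0 higher. ATP5MC1, a gene for the membrane ring, was at 76.4 ± 5.11 CPM in shCdGAP and 140 ± 1.17 in shCon (-0.87, SE 0.0495, edgeR adjusted p = 1.14e-06), and ATP5ME and ATP5F1D were at -0.59 and -0.39. Its mitochondrial subunits MT-ATP6 and MT-ATP8 were at 0.28 and 0.28 relative to all reads and were not called. Mitochondrial ribosomal proteins were 7 higher and 36 lower of 82, with a median of -0.10, and 5 to 12 higher and 26 to 38 lower with 1 library left out; MRPS2 (-1.09), MRPL50 (-0.87) and MRPS25 (-0.64) had the largest changes, MRPS2 and MRPL50 being on chromosome 9 with TRUB2 and NDUFA8. Of the ribosomal protein genes 52.4% were called in either direction, beside 46.2% of all tested genes. Without the genes of chromosomes 9 and 13, 92 nuclear genes remained called lower and 26 higher.

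**Figure D5:**
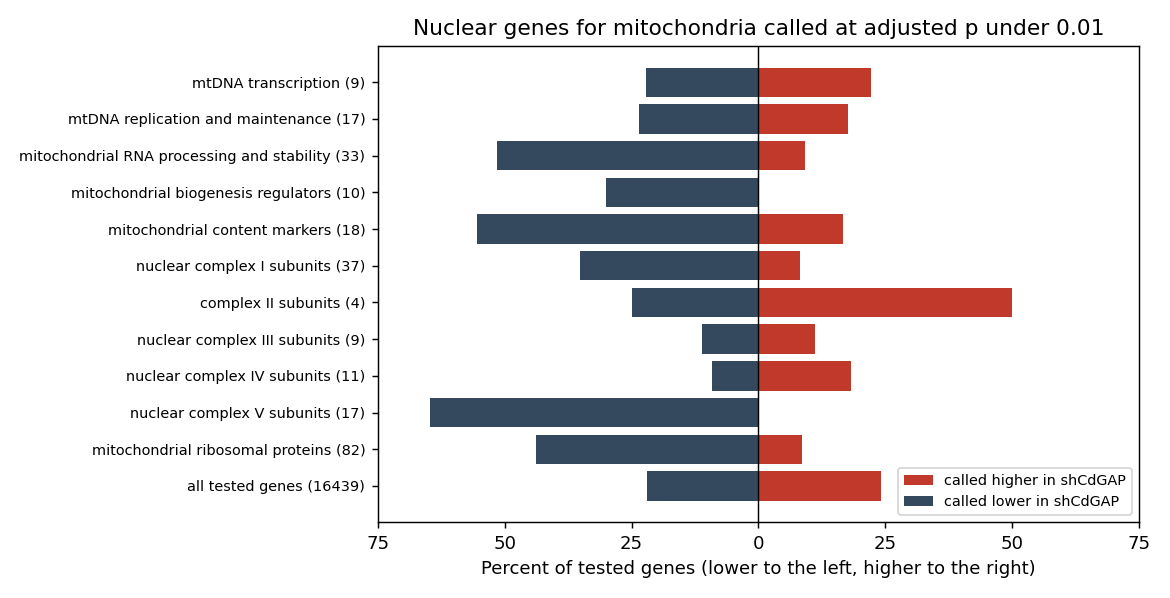
Percent of tested genes in each nuclear list called higher (right) or lower (left) in shCdGAP at an adjusted p under 0.01, with the number of tested genes in brackets and all tested genes in the bottom bar (24.1% higher, 22.0% lower). Complex V shows 11 of 17 genes lower and 0 higher, and complex II shows 2 of 4 higher.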

How the data were processed

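Raw counts per gene were deposited by the authors, 1 table per library and 6 in all. Per the labels and methods, RNA was aligned to GRCh38 with STAR 2.5.1b. Per the file headers, read pairs with both ends mapped were counted by strand with featureCounts 1.6.0 on Ensembl 77, and pairs with more than 1 alignment or in more than 1 gene were left out; the methods name featureCounts 1.4.6 and a single-read kit. For the libraries the methods name the Illumina TruSeq RNA Sample Preparation Kit. Whether poly(A) RNA was selected is not stated in the sources used here, and both choices change rRNA and tRNA levels. The part of this choice in the levels and ratios of MT-RNR1, MT-RNR2 and MT-ND6 was not tested. Positions and strands of all 37 mitochondrial genes equalled those of the reference annotation.

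Counts were analysed with edgeR 4.0.16 (its robust quasi-likelihood test after filterByExpr, with TMM scaling and no pairing; SE is the absolute log2 fold change over the square root of F) and DESeq2 1.42.0, in R 4.3.3 and Python 3.11.15. CPM use TMM-adjusted library sizes. Methods were tested on simulated data. The methods call the samples independent; if they were not separate cultures, p-values measure technical spread. Intervals cover counting error only. Named were all mitochondrial mRNAs, rRNAs and tested tRNAs, 8 chosen regulators, and up to 3 called genes per list with the largest absolute log2 fold change among those whose average log2 CPM was 3 or more, besides ARHGAP31, markers and nuclear copies with at least 10 reads in every library. Members and lists were chosen with earlier results of these data known. Alternatives were DESeq2, other scalings, filters and thresholds, a replicate block and libraries left out.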

Additional observations from a re-analysis of the deposited data

How the results depend on the processing

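Other tools, scalings and filters on low counts left 0 mitochondrial genes called. Same-numbered libraries deviated from their group means together only weakly (correlations over all tested genes 0.046, 0.067 and 0.067), and shCon replicate 1 correlated best with shCdGAP replicate 3 (0.050), so the numbers were not taken to pair samples. Over the 20 tested mitochondrial genes the same-number correlations were 0.156, 0.796 and 0.465, though shCdGAP replicate 1 correlated with shCon replicate 3 at 0.722. With the replicate block, 4 mitochondrial genes were called higher, MT-RNR1, MT-CO1, MT-ND4L and MT-ND4, beside 44% of all tested genes in either direction, while the 3 composition calls and the counts of nuclear genes (23 higher and 92 lower) changed little. Without replicate 2 of both groups, or without shCdGAP replicate 2, 1 was called (MT-ND6), so leaving out libraries gave 0 to 1. Nuclear genes called higher ran from 14 to 40 and composition calls higher from 2 to 4 with libraries left out. Between 4 and 7 mRNAs and rRNAs had shares that did not overlap, 7 without shCdGAP replicate 2.

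Relative to all reads, the fitted log2 fold change of most mitochondrial genes changed sign when 1 library was left out. Leaving out libraries gave -0.071 to 0.586 for MT-ATP6, -0.090 to 0.585 for MT-ATP8, -0.053 to 0.495 for MT-CO1, -0.045 to 0.582 for MT-CO2, -0.048 to 0.453 for MT-CO3 and -0.024 to 0.591 for MT-CYB. It gave -0.10 to 0.54 for MT-ND1, -0.16 to 0.48 for MT-ND2, -0.079 to 0.475 for MT-ND3, -0.12 to 0.47 for MT-ND5 and -0.45 to 0.05 for MT-RNR2. For the tRNAs the ranges were -0.82 to 0.10 for MT-TE, -0.40 to 0.19 for MT-TL1, -0.46 to 0.62 for MT-TP, -0.55 to 0.49 for MT-TQ and -0.62 to 0.13 for MT-TT, which was at 0.05 without replicate 2 of both groups. MT-ND4, MT-ND4L, MT-ND6 and MT-RNR1 kept their sign in these fits. In the composition fit the range of MT-RNR1 was -0.051 to 0.260. The cause was not tested.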

Other observations

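Genes whose RNAs are taken to lack a poly(A) tail, replication-dependent histone genes among them, were compared as a further list. Whether the counted transcripts of these genes carried a tail was not tested. The list held 105 genes, of which 23 were tested. In shCdGAP 0 were called higher, beside 24.1% of all tested genes, and 5 lower (21.7%, beside 22.0% of all tested genes). The median log2 fold change was -0.58, and 0.01 over all tested genes. The share called lower was near that of all genes, while the share called higher was below it. With an absolute log2 fold change above 1 in addition, 3 of the 23 were called lower, beside 689 of 16439 tested genes. The linker histone gene H1-2 was at 12.9 ± 0.881 CPM in shCdGAP and 19.2 ± 0.739 in shCon, H2AC6 at 5.84 ± 0.417 and 12.6 ± 0.412, and H2BC12 at 6.46 ± 0.181 and 17.6 ± 0.880 (SD, n = 3). Between replicate numbers the list did not move with the mitochondrial genes: the median of replicate 3 over replicate 2 was -0.00 in shCdGAP and -0.04 in shCon.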
